A study of Mus musculus with 12 samples.

Results

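The genes described here are those of the ubiquitin-conjugating (E2) enzymes, taken as every mouse gene whose symbol begins with Ube2 and a letter, with pseudogenes left out. Of 43 such symbols in the GENCODE M21 annotation, 37 are protein-coding, and all 37 were among the 25097 genes measured. The other 6 symbols were not protein-coding and were left out. Of the 37 members, 32 had enough counts to be tested. Ube2cbp meets the rule by its symbol, but its product binds an E2 and acts as a ubiquitin ligase. It was kept in the counts and is named where it matters.

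Transcript levels were measured by RNA sequencing of G1E-ER-GATA-1 cells, a mouse erythroid precursor line. The cells lack endogenous GATA-1, the main erythroid transcription factor, and carry GATA-1 fused to an estrogen receptor domain, so that beta-estradiol switches it on. All 12 libraries come from this line and its medium, which held erythropoietin and Kit ligand. They formed 4 groups of 3: wild-type (WT) cells without treatment, WT cells with 1 µM beta-estradiol for 48 h, mutant cells with 1 µM beta-estradiol for 48 h, and mutant cells with 1 µM beta-estradiol and 1 mM 5-aminolevulinic acid (5-ALA) for 48 h. The mutant cells are described in the labels as carrying a double mutation in cis-elements of Alas2, which encodes 5-aminolevulinate synthase 2, the enzyme at the start of heme synthesis in red cell precursors. Mutant cells without estradiol and WT cells with 5-ALA were not analysed here, and the labels do not say how many mutant clones were used. The comparisons share libraries: estradiol-treated WT cells enter 3 of the 4, and the mutant libraries with and without 5-ALA 2 each, so their values are set side by side and not counted as independent. Nothing in the labels says that the replicates were separate cultures, so p-values measure the spread between these libraries, which may be technical.

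Levels are given as CPM, counts scaled by library size with TMM factors, which compare a gene between libraries, or as TPM, which are also scaled by transcript length and compare genes within a library. The libraries held 20309085 to 43548387 counts and correlated within a group with Pearson's r of 0.99232 to 0.99488 across genes. Alas2 was at 5.12 ± 0.767 CPM (SD, n = 3) in untreated WT, 4293 ± 15.1 in estradiol-treated WT, 7.64 ± 2.20 in mutant and 12.3 ± 0.237 in mutant cells with 5-ALA, so both groups labelled mutant had little of it. All 14 erythroid markers tested rose with estradiol, and all 25 genes of mitosis and S phase fell. Over all genes tested, 43.3% rose and 46.4% fell. The summed level of those 25 genes went from 7540 to 7781 CPM in untreated cells to 546.7 to 558.9 CPM with estradiol. Of the 4 tested mast cell markers all fell, from a summed 145.3 to 160.6 CPM to 2.07 to 2.68 CPM, and Mcpt8 and Fcer1a had no count in any library. Megakaryocyte markers summed to 185.2 to 192 CPM in untreated and 1846 to 1869 CPM in estradiol-treated WT cells, and the rise was mainly that of Itgb3, from a mean of 87.9 to 1784 CPM. Of the 5 tested, 3 rose and 2 fell, Pf4 from 28.4 to 2.38 CPM and Itga2b from 60.8 to 21.2 CPM, while Gp1bb had no count and Ppbp stayed under 1 CPM in every library. In mutant cells the megakaryocyte sum was 422.3 to 437.4 CPM, and 720.8 to 737.3 CPM with 5-ALA. Granulocyte and macrophage markers summed to at most 2.90 CPM in any library, lymphocyte markers to at most 0.885 CPM and fibroblast markers to at most 11.7 CPM. The part of these other lineages' genes in the results on E2 genes was not tested.

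Ubiquitin is attached to proteins in 3 steps. An E1 enzyme activates it, an E2 enzyme takes it over on a cysteine, and an E3 ligase brings the loaded E2 to the substrate. The E2 shapes the product: some start chains, some extend them with a given linkage, and a few carry SUMO, NEDD8 or ISG15 in place of ubiquitin. Maturing red cells discard organelles and most proteins other than hemoglobin, and ubiquitination is part of that clearance. UBE2O and UBE2H are the E2 enzymes best known for it.

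The sequences before the start sites of 4 members are printed because these genes are among the widest changes below and their windows carried or lacked common motifs of the processes concerned. They are RefSeq windows on GRCm38.p6 of up to 250 bases before the start, read 5′ to 3′ on the gene's strand, with capitals for motif matches on either strand. Ube2c (chr2:164769679-164769917, plus strand) and Ube2t (chr1:134962315-134962564, plus strand) fell with estradiol, and capitals mark CCAAT and, in Ube2c, the TTTGAA core of the cell cycle homology region. Ube2l6 (chr2:84798578-84798827, plus strand) and Ube2h (chr6:30243804-30244053, minus strand) rose, and capitals mark the CACCC-type box CCNCNCCC in Ube2l6 and the GATA motif AGATAA in Ube2h. Matches to CCNCNCCC in Ube2t and Ube2h were left in lower case.
Ube2c: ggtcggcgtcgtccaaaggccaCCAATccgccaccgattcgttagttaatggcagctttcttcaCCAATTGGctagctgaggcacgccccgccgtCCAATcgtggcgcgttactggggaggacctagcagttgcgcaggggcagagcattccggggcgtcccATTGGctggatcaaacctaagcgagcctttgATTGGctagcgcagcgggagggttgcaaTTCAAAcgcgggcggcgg
Ube2t: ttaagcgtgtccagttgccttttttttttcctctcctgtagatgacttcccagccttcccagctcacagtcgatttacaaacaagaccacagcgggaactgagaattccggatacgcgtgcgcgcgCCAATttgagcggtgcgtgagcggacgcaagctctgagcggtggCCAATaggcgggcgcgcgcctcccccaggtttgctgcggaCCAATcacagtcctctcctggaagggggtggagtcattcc
Ube2l6: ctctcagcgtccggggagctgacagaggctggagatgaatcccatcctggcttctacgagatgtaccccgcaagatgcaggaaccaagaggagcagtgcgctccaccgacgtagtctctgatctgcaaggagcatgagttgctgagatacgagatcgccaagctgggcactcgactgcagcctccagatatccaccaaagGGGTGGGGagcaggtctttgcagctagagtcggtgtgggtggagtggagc
Ube2h: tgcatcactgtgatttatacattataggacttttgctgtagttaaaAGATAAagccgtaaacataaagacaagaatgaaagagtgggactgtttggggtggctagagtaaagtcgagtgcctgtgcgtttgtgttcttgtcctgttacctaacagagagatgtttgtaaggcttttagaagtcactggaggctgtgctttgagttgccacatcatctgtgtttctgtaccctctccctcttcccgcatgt

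The Ube2c window held CCAAT 6 times, at 228, 186, 183, 155, 88 and 57 bases before the start, with the matches at 186 and 183 overlapping on opposite strands. It held TTTGAA once, read as TTCAAA at 29 bases before the start, within the last 20 bases, which lie past the start of the first annotated exon. The Ube2t window held CCAAT 3 times, at 124, 80 and 40 bases before the start, and no TTTGAA. Among 32851 RefSeq windows of the same length, 33.8% held CCAAT and 16% held TTTGAA on either strand. Of the 41 windows of the 30 members with an entry, 9 held CCAAT and 4 held TTTGAA, and Ube2c held the most copies of CCAAT among the sequences printed. The Ube2h window belongs to the internal of the gene's 2 RefSeq start sites, which gene-level values do not tell apart. It was printed because it held a GATA motif. The window of the outer Ube2h start site held neither AGATAA nor TGATAA and was not printed. The internal window was the only member window with AGATAA, a motif in 9.99% of all windows. TGATAA, in 7.94% of all windows, was in none of the members' windows. The interferon-stimulated response element core, in 2.98% of all windows, was not in the Ube2l6 window. The CACCC-type box was in 45.9% of all windows and in 33 of the 41 member windows. A match is a description of letters and not a bound site, and the motifs were chosen with the expression values known.

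Estradiol changed nearly the whole family, and in both directions. Of the 32 members tested, 15 rose and 15 fell with estradiol in WT cells, against a background of 89.7% of all 12115 genes tested that were called (43.3% higher and 46.4% lower). A call is an adjusted p below 0.05 in the edgeR quasi-likelihood test. The members' share of calls was near that background. By at least 2-fold, 9 members rose and 5 fell, where 26.5% of all genes rose and 30.3% fell so far. By at least 1.5-fold, 10 members rose and 9 fell, against 34.7% and 37.9% of all genes. The median absolute log2 change was 0.84 over the members and 1.202 over all genes, so the typical member moved less than the typical gene. The groups did not overlap for 30 members, and for 90.2% of all genes. The 15 to 15 split depends on the scaling: fits on log2(TPM + 1) gave 10 higher and 19 lower, or, centred on the library median, 18 higher and 11 lower. Of the calls, 10 rises and 11 falls held under each of 14 alternative fits that tested the gene. The rises were in Ube2b, Ube2e2, Ube2f, Ube2h, Ube2j1, Ube2l6, Ube2o, Ube2q1, Ube2r2 and Ube2z. The falls included those in Ube2c, Ube2cbp, Ube2e1, Ube2e3, Ube2g1, Ube2k, Ube2n, Ube2s, Ube2t and Ube2w. A stricter filter (5 CPM in 3 libraries) left Ube2e2 and Ube2cbp untested.

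**Figure D1:**
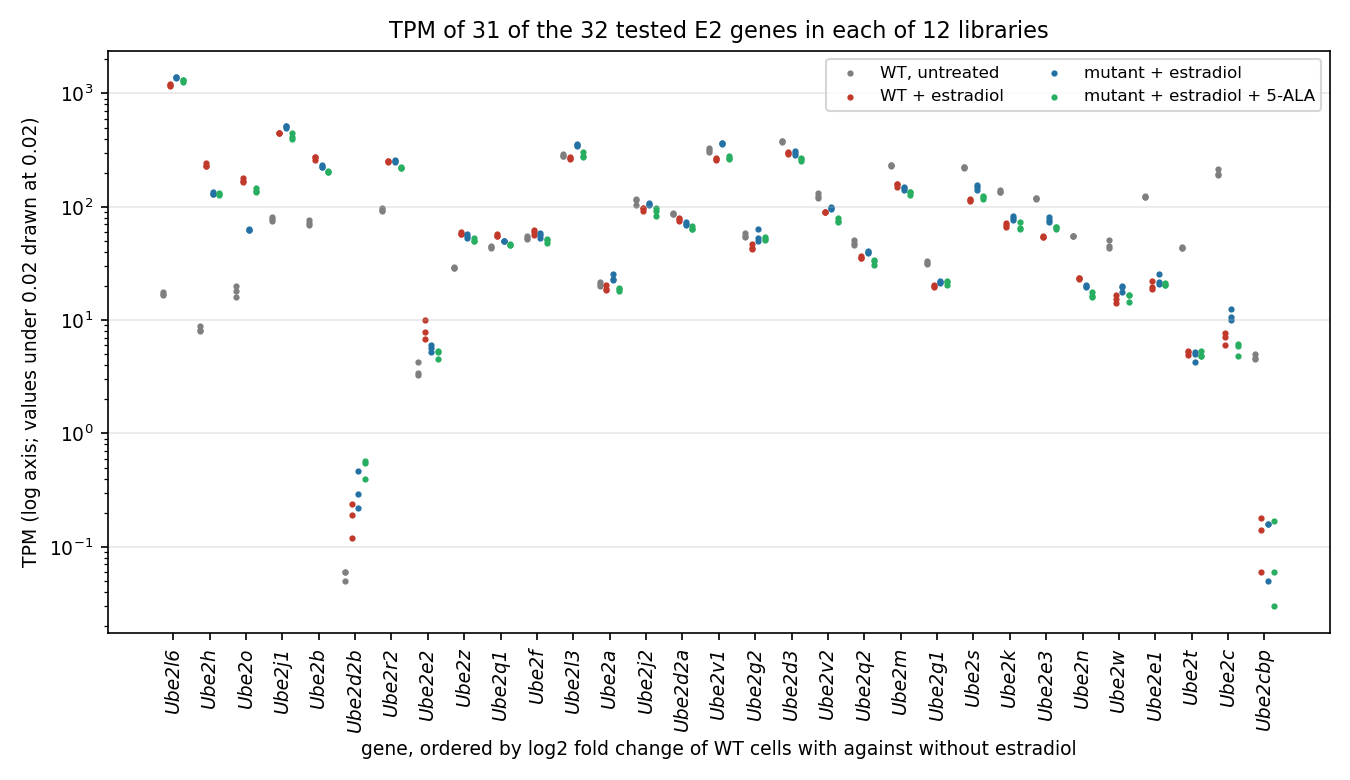
TPM (log axis) of 31 of the 32 tested E2 genes in each of the 12 libraries, ordered from the gene that rose most to the one that fell most with estradiol in WT cells; each point is 1 library, coloured by group. Ube2l6 at the left went from 17.0 to 1193 TPM, the sparse Ube2cbp at the right end from 4.76 to 0.127 TPM and Ube2c beside it from 201 to 6.96 TPM, while the genes in the middle kept levels close to those of untreated cells.

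The E2 genes tied to erythroid maturation were among the largest rises. UBE2O is a large enzyme that joins E2 and E3 activity and marks ribosomal proteins and other proteins of reticulocytes for destruction. Ube2o was at 42.9, 41.3 and 41.4 CPM in untreated WT and at 541, 522.6 and 535.7 CPM with estradiol. It was at 175.6, 174.4 and 178 CPM in mutant cells and at 417.6, 438.1 and 443.9 CPM in mutant cells with 5-ALA. The 4 groups did not overlap, with untreated cells lowest, mutant cells next, then mutant cells with 5-ALA, and estradiol-treated WT highest. Ube2o rose 12.7-fold with estradiol (log2 fold change 3.67, SE 0.028, adjusted p = 2.28e-38). It was 3.03-fold lower in mutant than in WT cells (log2 -1.60, SE 0.024, adjusted p = 2.5e-29) and 2.46-fold higher with 5-ALA (log2 1.30, SE 0.024, adjusted p = 1.57e-26). With 5-ALA it was still 1.23-fold below WT (log2 -0.30, SE 0.023, adjusted p = 2.24e-12). All 4 calls of Ube2o held under each alternative fit. It was the only member to change by 2-fold or more in the mutant comparison. With 5-ALA, the other changes of 1.5-fold or more were those of Ube2c and Ube2d2b, both under 10 CPM in these groups.

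UBE2H works with the CTLH ligase, a large complex that remodels the proteome of maturing erythroblasts. Ube2h was at 20.2, 20.2 and 21.1 CPM in untreated WT cells and at 677.4, 679 and 687 CPM with estradiol. It was at 344.8, 353.2 and 343.1 CPM in mutant cells, and at 382.3, 383.4 and 401.9 CPM with 5-ALA. Every mutant library thus lay between the untreated and the estradiol-treated WT libraries. Ube2h rose 33.2-fold with estradiol (log2 5.05, SE 0.031, adjusted p = 1.39e-40) and in mutant cells stood 1.96-fold below WT (log2 -0.97, SE 0.023, adjusted p = 1.09e-24). Its rise with 5-ALA was small (log2 0.17, SE 0.023, adjusted p = 1.09e-06), and on the log2(TPM + 1) scale its difference was -0.026 and not called. With 5-ALA it was 1.75-fold below WT (log2 -0.81, SE 0.023, adjusted p = 1.84e-22). In TPM, Ube2h was the 29th of the 37 members in untreated cells and the 8th in estradiol-treated WT cells.

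The CTLH subunits moved with Ube2h in the first comparison: 10 of 11 rose and 1 fell with estradiol. Over all genes, 43.3% rose and 46.4% fell there. Ranbp10 went from 55.6 ± 0.739 to 1587 ± 15.9 CPM (log2 4.83), Ypel5 from 18.9 ± 0.525 to 367.3 ± 3.14 CPM (log2 4.28), Rmnd5a rose by 2.32 and Wdr26 by 2.09 on the log2 scale. Maea, which encodes a RING subunit of its catalytic core, went from 113.3 ± 0.245 to 173.6 ± 3.34 CPM. In mutant against WT cells 4 subunits were higher and 6 lower, among them Ypel5 (log2 -1.22), Maea (log2 -0.54), Wdr26 (log2 -0.48) and Rmnd5a (log2 -0.31). Of all genes, 35.1% were higher and 33.6% lower there. With 5-ALA 3 rose and 4 fell, where 21.6% of all genes rose and 21% fell. The falls included Ranbp10, from 1299 ± 16.9 to 1183 ± 19.9 CPM (log2 -0.135), and Armc8 (log2 -0.18). Ypel5 went from 157.3 ± 2.31 to 313.8 ± 4.21 CPM (log2 1.00), Wdr26 rose by 0.18 on the log2 scale, and Maea was not called at 119.7 ± 1.18 and 121.7 ± 2.14 CPM. Ypel5 and Ube2o were thus both lower in the mutant and higher with 5-ALA by a log2 change near 1 or more, while Ube2h and Maea stayed close to the mutant level.

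**Figure D2:**
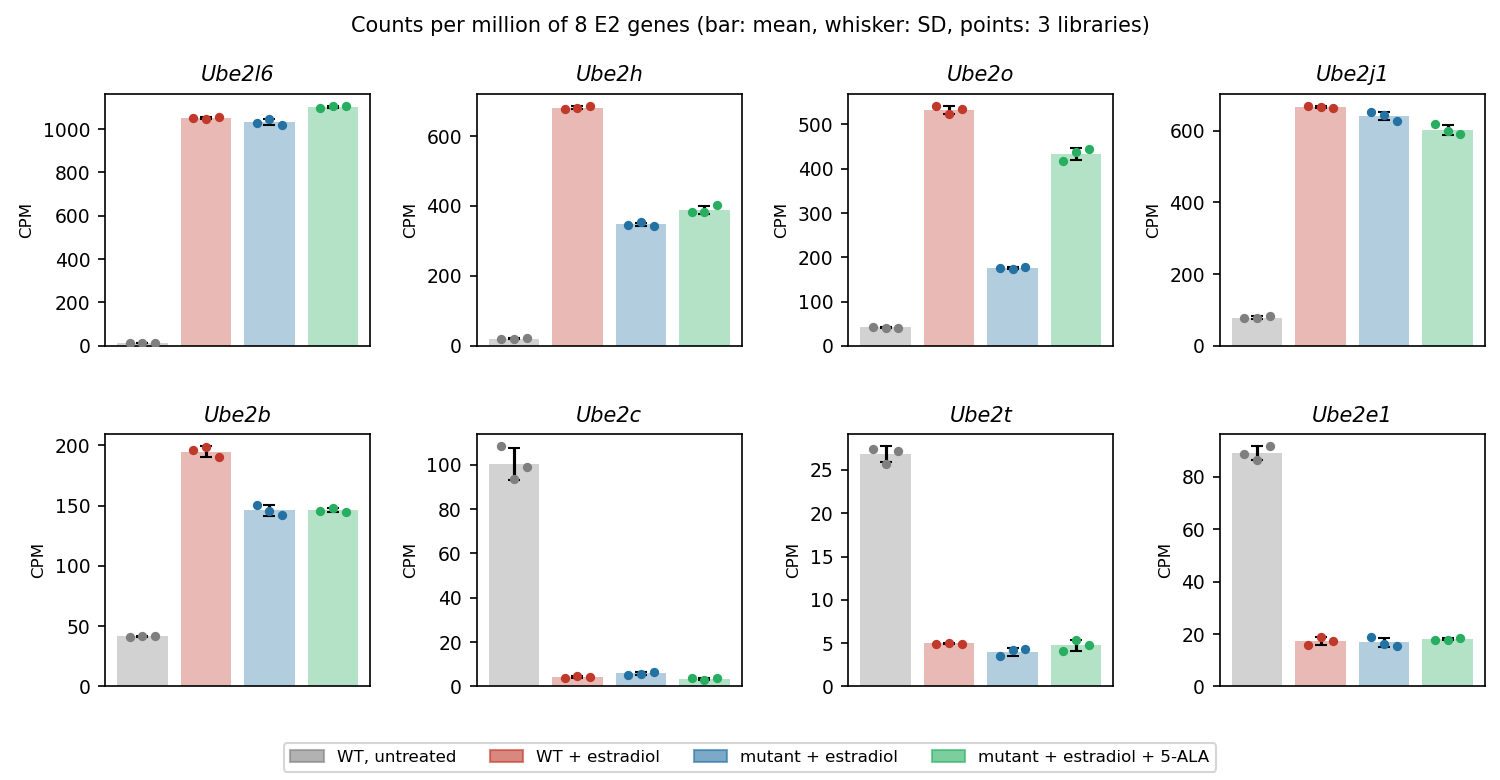
CPM of 8 E2 genes in the 4 groups; bars are means of 3 libraries, whiskers the SD and points single libraries, on linear axes that start at 0. Ube2l6 and Ube2j1 reached similar levels in every estradiol-treated group, Ube2h and Ube2b stayed lower in both mutant groups, and Ube2o was at 176 CPM in mutant cells and 433.2 CPM with 5-ALA.

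The E2 of the ISG15 pathway rose more than any other member. UBE2L6 accepts ISG15, an interferon-induced ubiquitin-like protein, from the E1 enzyme UBA7, and can also carry ubiquitin. Ube2l6 was at 13.7, 12.3 and 14.4 CPM in untreated WT, 1050, 1048 and 1055 CPM in estradiol-treated WT, 1027, 1048 and 1019 CPM in mutant and 1098, 1107 and 1105 CPM in mutant cells with 5-ALA. Untreated libraries stood far below the other 9, and the WT and mutant libraries with estradiol overlapped at 1048 CPM. It rose 77.4-fold with estradiol (log2 6.27, SE 0.036, adjusted p = 3.66e-41) and was not called between mutant and WT cells (log2 -0.03, SE 0.026, adjusted p = 0.357). With 5-ALA it was called at a log2 change of 0.10 (SE 0.026, adjusted p = 0.0026), which turned to -0.086 on the log2(TPM + 1) scale. By TPM it was the 28th member in untreated cells and the most abundant in each estradiol-treated group, at 1193 ± 25.1 TPM in WT, 1377 ± 16.9 TPM in mutant and 1297 ± 24.3 TPM in mutant cells with 5-ALA.

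Uba7 rose beside it, from 59.9 ± 1.46 to 1483 ± 12.6 CPM (log2 4.63, SE 0.027, adjusted p = 7.64e-41). ISG15 itself was close to the detection limit: Isg15 had 76 counts over all 12 libraries and group means of 0.184, 0.164, 0.193 and 0.261 CPM, with no call in any of the 4 comparisons. Of the 13 genes of the ISG15 and interferon list, 9 were tested, and 5 rose, 1 fell and 3 were not called with estradiol. Over all genes, 43.3% rose and 46.4% fell. Irf7 rose to 2.91 ± 0.496 CPM (log2 2.66), Irf9 to 34.9 ± 0.672 CPM (log2 1.82) and Stat2 to 30.9 ± 0.877 CPM (log2 0.79). Interferon-induced Ifit1 and Oasl2 stayed under 1 CPM in every library, as did Herc6, the ISG15 ligase of the mouse, and Ifit3 had no count. The ISG15 deconjugase Usp18 was at 0.903 ± 0.0712 CPM in untreated and 0.683 ± 0.323 CPM in estradiol-treated WT cells and was not called there. In mutant cells Usp18 was higher than in WT (log2 1.17, adjusted p = 0.000218). Of the 9 tested genes of the list, 6 were higher and 2 lower in mutant than in WT cells. Over all genes, 35.1% were higher and 33.6% lower there. With 5-ALA, 2 of the 9 rose and 5 fell, where 21.6% of all genes rose and 21% fell. With estradiol, transcripts of the pathway's E1 and E2 were thus abundant, while those of its modifier and mouse ligase stayed under 1 CPM.

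The E2 enzymes of the anaphase-promoting complex (APC/C) fell with estradiol, along with the mitotic genes. UBE2C starts ubiquitin chains on APC/C substrates such as cyclin B, and UBE2S extends them. Ube2c was at 108, 93.8 and 98.95 CPM in untreated WT cells and at 3.75, 4.77 and 4.41 CPM with estradiol. It was at 5.35, 5.67 and 6.72 CPM in mutant cells and at 3.57, 3.01 and 3.83 CPM with 5-ALA. The mutant libraries lay above those of both other estradiol-treated groups, all of them far below untreated cells. Ube2c fell 23.4-fold with estradiol (log2 -4.55, SE 0.083, adjusted p = 6.79e-21). It was higher in mutant than in WT cells (log2 0.47, SE 0.12, adjusted p = 0.0017) and lower with 5-ALA than without it (log2 -0.77, SE 0.12, adjusted p = 3.77e-05). Mutant cells with 5-ALA did not pass the test against WT (log2 -0.30, SE 0.13, adjusted p = 0.059), but did without WT estradiol replicate 1 (log2 -0.40, adjusted p = 0.038). In mutant against WT cells, 8 of the 25 mitosis and S phase genes were higher and 12 lower. Over all genes, 35.1% were higher and 33.6% lower there. With 5-ALA, 2 of the 25 rose and 10 fell, where 21.6% of all genes rose and 21% fell. The part of cell cycle arrest in these levels, with 25 of 25 mitosis and S phase genes lower with estradiol in WT cells, was not tested. Fewer cells expressing a gene and less RNA of it per cell cannot be told apart in bulk samples.

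Ube2s fell less, from 98, 94.4 and 101 CPM to 63.2, 60.1 and 61.5 CPM (log2 -0.67, SE 0.036, adjusted p = 7.27e-17). It was at 72.3, 70 and 66.6 CPM in mutant cells, above all WT libraries with estradiol (log2 0.17, SE 0.037, adjusted p = 0.000155). With 5-ALA it was at 62.1, 67.1 and 67.1 CPM, which was not called against mutant cells (log2 -0.09, SE 0.037, adjusted p = 0.0635). Exons of Ube2s overlap those of Rpl28, so the Ube2s level may hold reads of that gene. Rpl28 moved the other way with estradiol in WT cells, from 607.9 ± 26.4 to 1017 ± 16.2 CPM. In mutant cells it was at 1230 ± 90.2 CPM, higher than in WT as Ube2s was (log2 0.27). The part of shared reads in the Ube2s calls was not tested. Of 17 APC/C subunits and activators, 6 rose, 9 fell and 2 were not called with estradiol. Over all genes, 43.3% rose and 46.4% fell. The inhibitor Fbxo5 fell by 5.10 and the activator Cdc20 fell by 4.14 on the log2 scale. The core subunits Anapc5, from 285 ± 6.90 to 71.9 ± 0.588 CPM (log2 -1.99), and Cdc23, from 144.4 ± 2.52 to 38.7 ± 0.793 CPM (log2 -1.90), fell as well. The activator Fzr1, which keeps the complex active in G1 and in resting cells and was chosen after its value was seen, rose from 80.5 ± 3.02 to 122.1 ± 3.97 CPM. Mutant and WT cells differed in 8 higher and 7 lower members of that list, where 35.1% of all genes were higher and 33.6% lower. The summed level of the list was 1692 to 1729 CPM in untreated and 1047 to 1056 CPM in estradiol-treated WT cells.

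**Figure D3:**
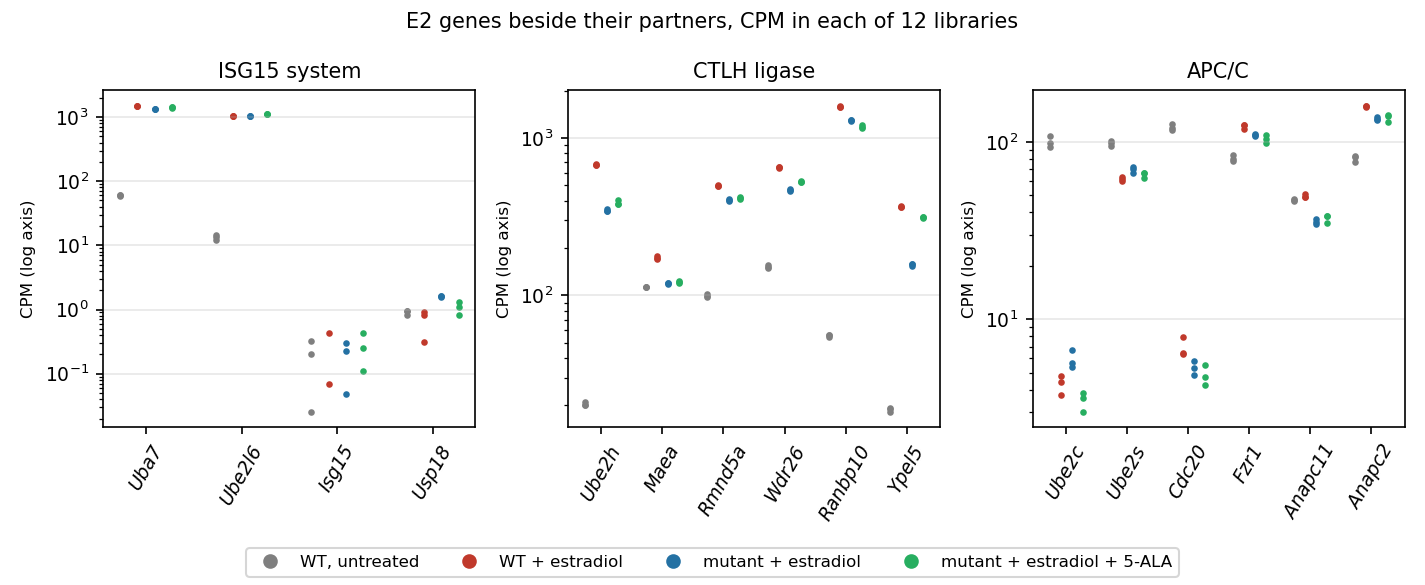
CPM (log axes) in each of 12 libraries of E2 genes beside their partners in the ISG15 pathway, the CTLH ligase and the APC/C; each point is 1 library, coloured by group. In estradiol-treated libraries Ube2l6 averaged 1031 CPM or more and Uba7 1344 CPM or more while Isg15 reached at most 0.425 CPM, and Ypel5 but not Ube2h or Maea was higher by about 2-fold with 5-ALA.

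Among the E2 enzymes of DNA repair, Ube2t fell most. UBE2T puts a single ubiquitin on FANCD2 and FANCI in the Fanconi anemia pathway. Ube2t was at 27.5, 25.7 and 27.2 CPM in untreated WT cells and at 4.93, 5.04 and 4.91 CPM with estradiol. In mutant cells it was at 3.50, 4.22 and 4.35 CPM, and with 5-ALA at 4.08, 5.38 and 4.77 CPM. Estradiol-treated libraries of all 3 groups lay far below the untreated ones and near each other. The fall was 5.41-fold (log2 -2.44, SE 0.080, adjusted p = 2.7e-22). The mutant was lower than WT (log2 -0.28, SE 0.10, adjusted p = 0.017), but not without WT estradiol replicate 2 (adjusted p = 0.061) or mutant replicate 1 (adjusted p = 0.12). With 5-ALA it was not called against either group (log2 0.21, SE 0.10, adjusted p = 0.091 against mutant cells), but was against mutant cells without 5-ALA replicate 1 (adjusted p = 0.021). Of 10 Fanconi genes, 9 fell and 1 rose with estradiol, where 46.4% of all genes fell and 43.3% rose. Fancd2 went from 114.3 ± 3.11 to 1.37 ± 0.277 CPM (log2 -6.35), and Fancl, the ligase that works with UBE2T, from 22.0 ± 0.497 to 4.92 ± 0.161 CPM. In mutant against WT cells 7 of these genes were higher and 1 lower, where 35.1% of all genes were higher and 33.6% lower. Fancg was higher most of all (log2 1.40), and Fancd2 was not called (log2 -0.39, SE 0.16, adjusted p = 0.064).

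The RAD6 enzymes UBE2A and UBE2B, close relatives that ubiquitinate histone H2B and PCNA, parted with estradiol. Ube2b went from 41.1, 42.1 and 41.9 CPM to 196, 199 and 190.1 CPM (log2 2.23, SE 0.029, adjusted p = 1.17e-32). It was at 151, 145 and 142 CPM in mutant cells and 146, 148 and 145 CPM with 5-ALA. Its mutant level was 1.34-fold below that of WT cells (log2 -0.42, SE 0.026, adjusted p = 7.97e-15), and with 5-ALA it was not called against mutant cells (log2 0.00, adjusted p = 0.923) but was against WT (log2 -0.42, adjusted p = 1.6e-14). Ube2a was at 18.4 ± 0.63 and 20.6 ± 0.996 CPM in untreated and estradiol-treated WT cells, a log2 change of 0.16 that turned to -0.12 on the log2(TPM + 1) scale. In TPM, Ube2b exceeded Ube2a in untreated (72.2 ± 3.91 against 20.96 ± 0.832) and in estradiol-treated WT cells (270.4 ± 8.20 against 19.2 ± 0.935). The expressed RAD6 form was thus mainly Ube2b, and more so after estradiol.

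UBC13, encoded by Ube2n, builds chains of a non-degradative linkage with a catalytically inactive partner, UBE2V1 in signalling or UBE2V2 in DNA repair. Ube2n fell from 115, 111 and 118 to 59.6, 59.4 and 57.6 CPM with estradiol (log2 -0.96, SE 0.033, adjusted p = 6.65e-22). It was lower again in mutant cells, at 44.4, 43.6 and 44.7 CPM (log2 -0.42, SE 0.036, adjusted p = 2.64e-11), and at 44.6, 42.1 and 40.8 CPM with 5-ALA, which was not called against mutant cells but was against WT (log2 -0.47, SE 0.037, adjusted p = 2.88e-12). Its partners moved less. Ube2v2 fell by 0.10 with estradiol on the log2 scale, which turned to 0.032 under a stricter filter and to 0.062 on the centred log2(TPM + 1) scale. Ube2v1 was at 216 ± 2.79 and 223 ± 4.55 CPM in the untreated and estradiol-treated WT groups and was not called (log2 0.05, adjusted p = 0.057), although it was without WT estradiol replicate 1 (adjusted p = 0.033) or 3 (adjusted p = 0.0074). It was higher in mutant cells at 260.4, 267 and 277 CPM (log2 0.26, SE 0.025, adjusted p = 1.81e-10) and lower with 5-ALA at 238, 228 and 239 CPM (log2 -0.19, SE 0.025, adjusted p = 3.08e-07). Ube2v2 went from 71.8, 72.8 and 73.4 CPM in mutant cells to 68.3, 64.2 and 64.2 CPM with 5-ALA (log2 -0.15, SE 0.034, adjusted p = 0.000606). Ube2v1 shares exons with the readthrough gene Gm20431, which was at 2.01 ± 0.467, 37.7 ± 9.67, 14.3 ± 3.13 and 27.2 ± 8.54 CPM in the 4 groups. Gm20431 moved opposite to Ube2v1 in mutant against WT cells (log2 -1.37) and with 5-ALA (log2 0.91). The part of shared reads in the Ube2v1 calls was not tested. Ube2w, which puts ubiquitin on the N-terminus of proteins, fell with estradiol from 43.0 ± 1.23 to 17.6 ± 0.95 CPM (log2 -1.29). Of the 11 ligase partners of RAD6 and UBC13 listed, 7 rose, 3 fell and 1 was not called with estradiol. Over all genes, 43.3% rose and 46.4% fell. Ubr1 was higher (log2 1.06), and Shprh (log2 -1.44), Hltf (log2 -1.17) and Rnf168 (log2 -1.03) were lower.

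The E2 genes of endoplasmic-reticulum-associated degradation did not move as 1 group. UBE2J1 and UBE2J2 sit in the membrane of the endoplasmic reticulum, and UBE2G1 and UBE2G2 serve its ligases from the cytosol. Ube2j1 went from 76.3, 76.4 and 83.1 to 670.0, 667 and 665 CPM with estradiol (log2 3.08, SE 0.030, adjusted p = 6.59e-36). It was at 651, 643 and 628 CPM in mutant cells, where the difference from WT was not called (log2 -0.06, SE 0.026, adjusted p = 0.052), and at 619, 598 and 592 CPM with 5-ALA (log2 -0.09, SE 0.026, adjusted p = 0.0082). All libraries with estradiol thus stood far above the untreated ones and close to each other. Ube2j2 moved by 0.13 on the log2 scale, which turned to -0.23 on log2(TPM + 1), Ube2g2 by -0.03 (not called), and Ube2g1 fell by 0.42. In contrast, all 10 tested genes of the list of the pathway's ligases and their partner proteins rose with estradiol, where 43.3% of all genes rose. Among them were Rnf185 (log2 2.10), Derl1 (log2 1.86) and Syvn1, the main ligase of the pathway (log2 1.66). In mutant against WT cells, 2 of the 10 were higher and 8 lower, such as Derl1 (log2 -0.58). Over all genes, 35.1% were higher and 33.6% lower there. With 5-ALA, 4 of the 10 rose and 2 fell, where 21.6% of all genes rose and 21% fell. Against WT, mutant cells with 5-ALA had 2 higher and 8 lower, where 33.3% of all genes were higher and 29% lower. With 5-ALA, Ube2g1 went from 46.5, 44.9 and 43.7 to 51.6, 52.8 and 49.3 CPM (log2 0.19, SE 0.035, adjusted p = 5.57e-05), and Ube2g2 from 49.6, 48.5 and 51.6 to 54.1, 52.8 and 54.4 CPM (log2 0.11, SE 0.036, adjusted p = 0.015). The Ube2g2 call was lost without mutant replicate 1 or 2 or 5-ALA replicate 3, and both changed sign on the log2(TPM + 1) scale. Against WT, Ube2g2 was higher with 5-ALA (log2 0.28, SE 0.037, adjusted p = 1.63e-07).

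SUMO and NEDD8 have activating enzymes of their own. Both subunits of the SUMO E1 fell with estradiol: Sae1 went from 259.1 ± 3.87 to 57.7 ± 1.51 CPM (log2 -2.17) and Uba2 from 389.2 ± 13.4 to 78.5 ± 2.45 CPM (log2 -2.31). Of 11 SUMO ligases and proteases, 7 rose, 2 fell and 2 were not called, where 43.3% of all genes rose and 46.4% fell. Senp2 (log2 1.74) and Pias1 (log2 1.73) rose most. The SUMO E1 genes thus fell while most of the ligases and proteases listed rose. In mutant cells the subunits parted: Sae1 was higher than in WT (log2 0.84), and Uba2 was lower (69.8 ± 1.57 against 78.5 ± 2.45 CPM, log2 -0.17). Over all 9 E1 genes, 2 were higher and 7 lower in mutant cells, where 35.1% of all genes were higher and 33.6% lower.

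NEDD8 is attached to cullins by UBE2M or UBE2F. Ube2m fell with estradiol from 82.4 ± 1.98 to 67.6 ± 1.32 CPM (log2 -0.29) and Ube2f rose from 38.5 ± 0.658 to 50.0 ± 2.66 CPM (log2 0.38). Both were lower in mutant than in WT cells (log2 -0.25 and -0.20), and neither was called with 5-ALA. Of 14 cullins and NEDD8 ligases, 6 rose and 6 fell with estradiol, where 43.3% of all genes rose and 46.4% fell. Dcun1d3 (log2 2.41) and Rnf7 (log2 -1.53), the RING protein that pairs with UBE2F, were at the ends. No common direction marked the NEDD8 genes.

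The remaining members are E2 enzymes that serve many ligases. With estradiol, 7 of the 12 tested rose and 5 fell, where 89.7% of all genes were called. Ube2r2, a CDC34-type enzyme of the SCF ligases, rose from 75.4 ± 2.06 to 251 ± 4.18 CPM (log2 1.73), and its paralog Cdc34 from 94.8 ± 1.82 to 162.6 ± 1.23 CPM (log2 0.78). Ube2z, which is charged by UBA6 and not by UBA1, rose from 62.5 ± 0.708 to 153 ± 2.29 CPM (log2 1.29), while Uba6 fell from 56.6 ± 3.60 to 20.1 ± 0.425 CPM and Uba1 rose from 498.5 ± 9.32 to 1017 ± 7.67 CPM. E1 genes as a list gave 2 rises and 6 falls among 9, where 43.3% of all genes rose and 46.4% fell. Of the 4 ubiquitin genes 2 rose, 1 fell and 1 was not called; the polyubiquitin gene Ubb rose (log2 1.22), and Rps27a, which encodes ubiquitin joined to a ribosomal protein, fell (log2 -1.24).

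The UBE2E enzymes, 3 close relatives, went different ways. Ube2e1 fell from 88.8, 86.6 and 91.8 to 16, 19 and 17.4 CPM (log2 -2.35, SE 0.053, adjusted p = 6.9e-25), and Ube2e3 from 95.3, 96.1 and 98.1 to 52.0, 53.5 and 53.6 CPM (log2 -0.86, SE 0.032, adjusted p = 5.03e-21). Ube2e2 rose from a low level, 0.915 ± 0.164 to 2.44 ± 0.561 CPM (log2 1.41, SE 0.20, adjusted p = 2.05e-07). In mutant cells Ube2e3 was at 66.9, 69.3 and 64.9 CPM, above WT (log2 0.34, SE 0.033, adjusted p = 2.6e-10), and Ube2e2 was below it (log2 -0.80, SE 0.19, adjusted p = 0.000525). By estradiol, the family's 2 abundant genes thus fell and the scarce one rose.

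The abundant UBE2D genes, Ube2d3 and Ube2d2a, changed little with estradiol, and the sparse Ube2d2b rose. Ube2d3 was at 319 ± 5.16 and 301 ± 4.47 CPM (log2 -0.09), a difference that turned to 0.19 on the centred log2(TPM + 1) scale, and Ube2d2a was at 115 ± 3.21 and 125 ± 3.50 CPM (log2 0.12), which turned to -0.17 on the log2(TPM + 1) scale. Mutant cells had less Ube2d2a than WT (log2 -0.32, SE 0.029, adjusted p = 5.43e-11). Ube2d2b, a close copy of Ube2d2a whose reads RSEM may divide between the genes, had 5, 17, 27 and 49 counts over the 4 groups. It rose with estradiol from a mean of 0.0474 to 0.200 CPM (log2 2.00, SE 0.63, adjusted p = 0.0040), with a count ratio of 4.28 (95% exact interval 1.52 to 14.8, counting error only), and was not called on the log2(TPM + 1) scale (adjusted p = 0.055). It was also called with 5-ALA (log2 0.97, adjusted p = 0.030), but not without mutant replicate 2 or 3 (adjusted p = 0.20 and 0.082) or 5-ALA replicate 2 or 3 (adjusted p = 0.095 and 0.12). Ube2d2b passed the filter on low counts only through the 5-ALA libraries, the group where it was highest. Ube2l3, which passes ubiquitin to HECT and RING-between-RING ligases, rose slightly from 203 ± 4.97 to 259 ± 3.02 CPM (log2 0.35), and this turned to -0.059 on the log2(TPM + 1) scale. Exons of Ube2l3 overlap those of Ydjc, which went from 38.7 ± 2.21 to 2.55 ± 0.312 CPM. Ube2k, whose product can build degradative chains by itself, fell by 0.82 on the log2 scale, and Ube2q1 rose by 0.63.

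Ube2q1 was also lower in mutant cells, at 87.9, 87.8 and 89.4 CPM against 111, 117 and 112 CPM in WT (log2 -0.36, SE 0.029, adjusted p = 4.01e-12), and at 90.9, 95 and 93.8 CPM with 5-ALA (log2 -0.28, SE 0.029, adjusted p = 1.02e-09 against WT). Its mutant libraries, with or without 5-ALA, all lay below WT. Ube2cbp, the ligase with an E2-like symbol, had 471 counts in untreated and 10 in estradiol-treated WT libraries, a ratio of 37.4 (95% exact interval 20.2 to 78.6, counting error only). Ube2cbp passed the filter on low counts only through the untreated libraries, the group where it was highest. Of the 5 untested members, Ube2d1 had 33 counts over all libraries, Ube2u 8 and Ube2dnl1 2, and Ube2dnl2 and Ube2ql1 had none, which allows up to 3 counts of 370059498, or 0.00811 CPM before TMM scaling. These are genes for which no change could be detected at this depth.

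Mutant cells differed from WT cells, both with estradiol, in 23 of the 32 members. Against a background of 68.8% called (35.1% higher and 33.6% lower), 8 members (Ube2c, Ube2e3, Ube2g2, Ube2k, Ube2l3, Ube2s, Ube2v1 and Ube2w) were higher and 15 lower in the mutant. On the log2(TPM + 1) scale the split was 15 higher and 8 lower, and centred on the library median it was 5 and 18, so the counts by direction rest on the scaling, and the sign of Ube2k was among those that turned when centred. Of the 14 erythroid markers, 4 were higher and 8 lower in mutant cells, and their summed level was 30540 to 32030 CPM against 86010 to 86920 CPM in WT; its part in the members' differences was not tested. The members' changes were small: no member was 2-fold higher and only Ube2o was 2-fold lower, where 5.18% of all genes were higher and 6.6% lower by that much. By 1.5-fold or more, 0 members were higher and 3 lower, against 13.1% and 12.9% of all genes. The groups did not overlap in 26 members and in 71.7% of all genes. Under each of 14 alternative fits that tested the gene, Ube2c, Ube2e3, Ube2s and Ube2v1 kept a higher and Ube2b, Ube2d2a, Ube2e2, Ube2h, Ube2m, Ube2n, Ube2o and Ube2q1 a lower call. The stricter filter left Ube2e2 untested.

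With 5-ALA, 9 members rose and 5 fell in mutant cells, and 18 were not called, against a background of 42.6% called (21.6% higher and 21% lower). Of the erythroid markers, 8 rose and 2 fell with 5-ALA, to a summed 74230 to 79720 CPM, and their part in the members' changes was not tested. Only 1 member, Ube2o, rose by 2-fold or more, as 1.77% of all genes did, and none fell so far, as 0.537% did. By 1.5-fold or more, 2 members rose and 1 fell, against 4.36% and 2.08% of all genes. The groups did not overlap in 15 members, and in 49.1% of all genes. Without mutant replicate 2 only 9 were called, 5 of them higher, and without 5-ALA replicate 3 the higher calls were 5. DESeq2 called 8, and the fit without a filter on low counts 9. On the log2(TPM + 1) scale 2 were higher and 23 lower, a scale on which the median of all genes moved to -0.15, and centred on the library median 6 were higher and 5 lower. The calls that held under each of 14 alternative fits were the rise of Ube2o and the falls of Ube2c, Ube2v1 and Ube2v2.

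Mutant cells with 5-ALA were compared with estradiol-treated WT cells as well, and this comparison shares libraries with both others. It gave 9 members higher and 16 lower, against a background of 62.3% called (33.3% higher and 29% lower), and the groups did not overlap in 24 members and in 65.9% of all genes. With DESeq2 size factors 4 were higher and 17 lower, and on the log2(TPM + 1) scale 4 and 16. Ube2h, Ube2n, Ube2b, Ube2o, Ube2q1 and Ube2g2 differed most among members with at least 10 CPM, all but Ube2g2 being lower than in WT. By 2-fold or more, 1 member, the sparse Ube2d2b (log2 1.42), was higher and none lower, where 3.59% of all genes were higher and 4.18% lower. Ube2d2b passed the filter on low counts only through the 5-ALA libraries, so its higher call was not independent of that filter. A difference of 1.5-fold or more was seen in 1 higher and 2 lower members, against 9.6% and 8.72% of all genes. The log2 differences of Ube2h (-0.97 without and -0.81 with 5-ALA), Ube2b (-0.42 and -0.42) and Ube2n (-0.42 and -0.47) from WT stood side by side with those of Ube2o (-1.60 and -0.30).

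**Figure D4:**
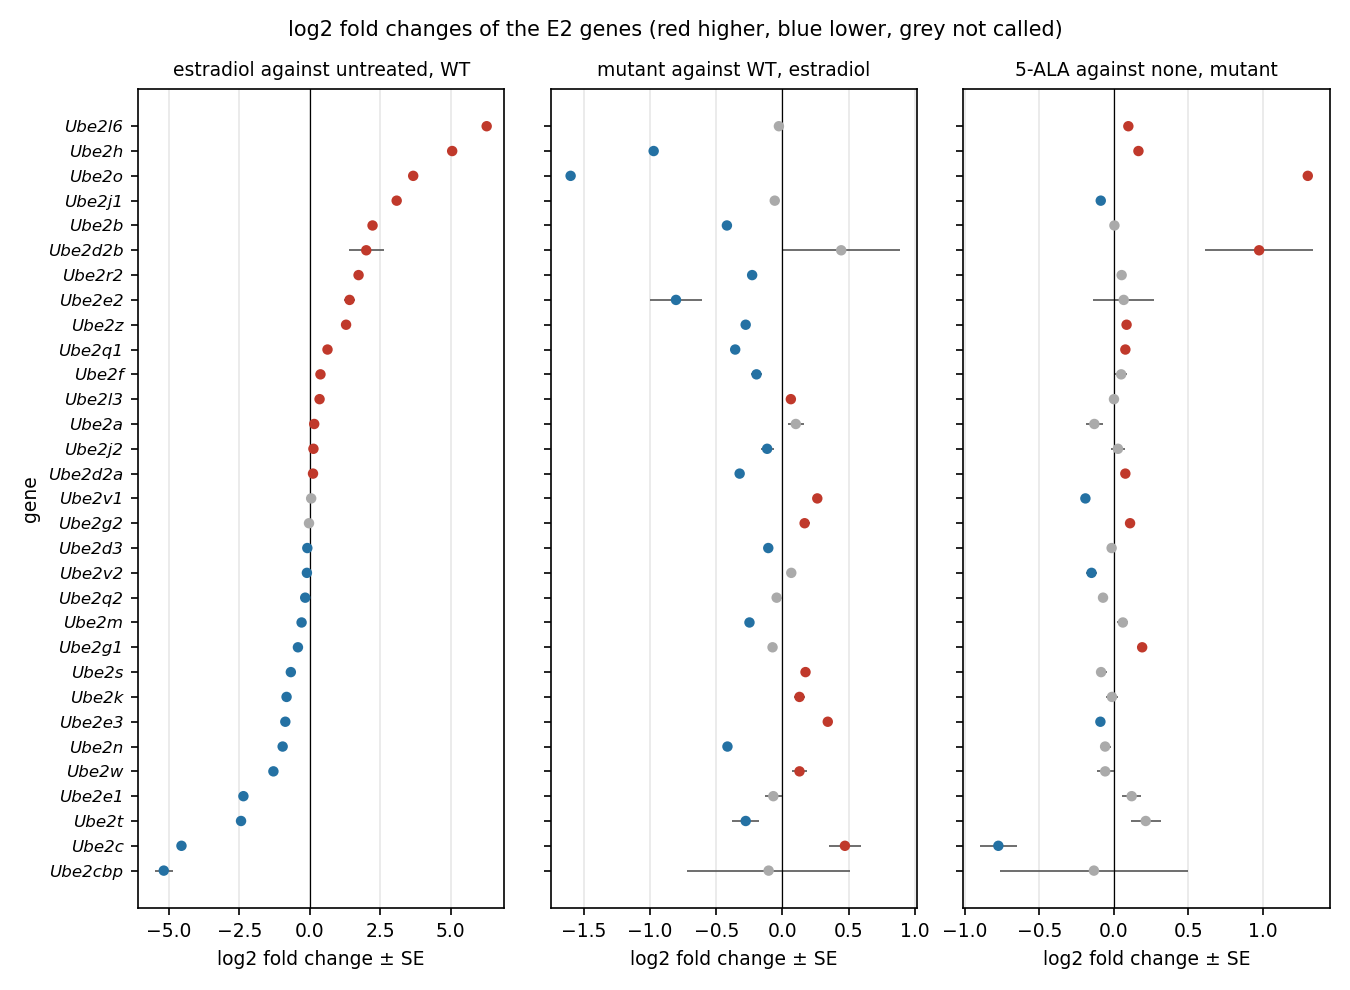
Log2 fold changes (x axes, different ranges) of 31 of the 32 tested E2 genes in 3 comparisons, with whiskers for an approximate SE; red is higher, blue lower and grey not called. With 5-ALA most members lie within 0.2 of 0, apart from Ube2o at 1.30, the sparse Ube2d2b at 0.97, Ube2c at -0.77 and Ube2t at 0.21, which was not called.

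Both the family's sum and its make-up changed with estradiol. The summed TPM of the 37 members was 3519 ± 34.9 in untreated WT, 4657 ± 22.4 in estradiol-treated WT, 4900 ± 30.8 in mutant and 4372 ± 82 in mutant cells with 5-ALA. Globin mRNAs took 0.080%, 18.8%, 6.81% and 17.4% of all TPM in the same groups, and with globins left out of the total the sums were 3522, 5738, 5257 and 5293. In CPM, not scaled by length, the sums were 2635 ± 42.7, 5429 ± 5.59, 4538 ± 24.6 and 4853 ± 14.9, so the mutant sum was above that of estradiol-treated WT in TPM and below it in CPM and in TPM without globins. In untreated cells Ube2d3, Ube2v1, Ube2l3 and Ube2m were among the 5 leading members, which together made up 47.5% of the sum. In estradiol-treated WT cells Ube2l6, Ube2j1, Ube2d3, Ube2l3 and Ube2b led, with 53.3%, and Ube2l6 alone had 25.6%, against 0.484% in untreated cells. Ube2l6 and Ube2j1 also led both mutant groups. Ube2o made up 3.68% of the sum in estradiol-treated WT, 1.27% in mutant and 3.19% in mutant cells with 5-ALA.

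**Figure D5:**
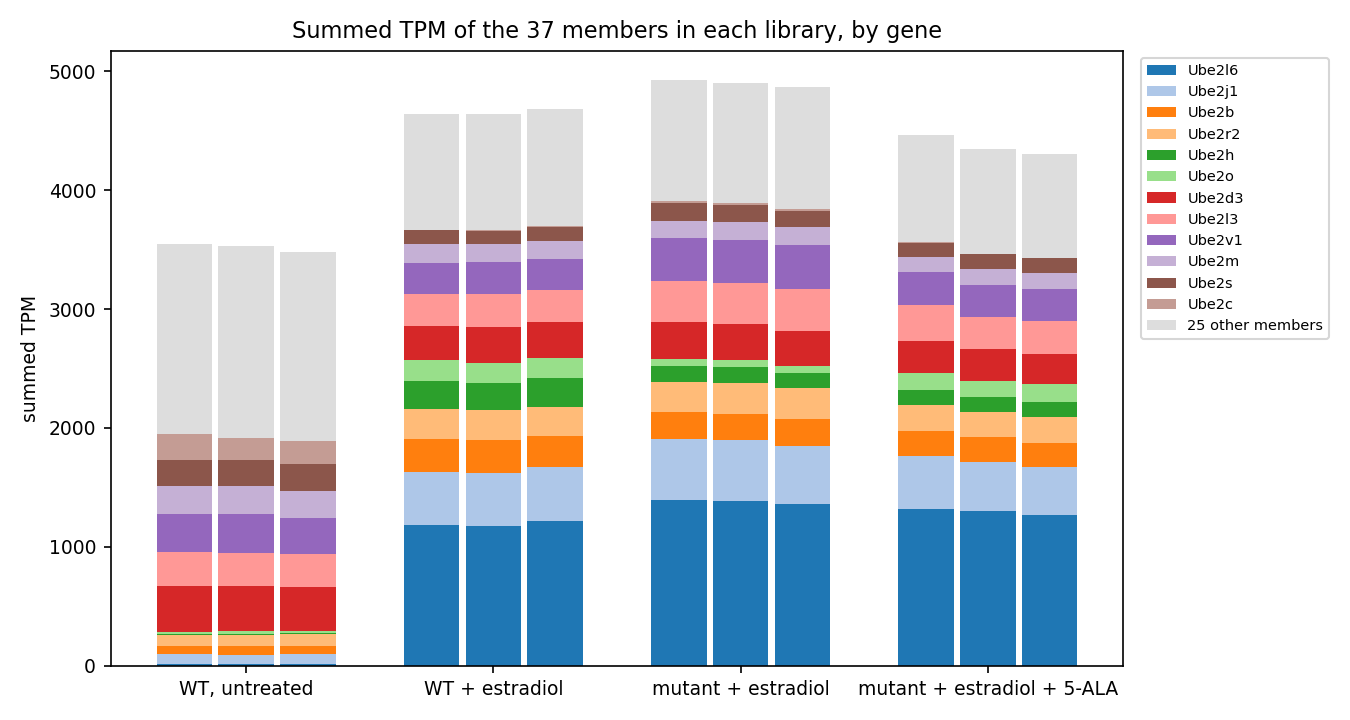
Summed TPM of the 37 members in each of the 12 libraries, divided by gene (the 12 coloured genes and, in grey, the 25 others). Ube2l6, at the base of each bar, was 0.484% of the sum in untreated and 25.6% in estradiol-treated WT cells.

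The abundance-weighted transcript length of a gene, which shifts when the use of its transcripts shifts, moved by 1.2 times or more with estradiol in 3 of 32 members (9.38%), as in 8.19% of all tested genes. Ube2t went from 1178 ± 15.6 to 1502 ± 48.6 bases and Ube2j1 from 1902 ± 46 to 2284 ± 4.84 bases, with no overlap between the groups. The third was the sparse Ube2cbp, with overlapping groups. Ube2h, with its 2 start sites, had overlapping lengths of 4553 ± 179.6 and 4441 ± 90.1 bases.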

How the data were processed

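Per the labels' protocols, TRIzol was used for RNA and a TruSeq RNA kit for the libraries. The submitters' processing notes name CASAVA 1.8.2, Bowtie 1.1.1, RSEM 1.2.20 and mm10. The read length, annotation and strand setting behind the counts: not given in the sources used here. Per the file headers, the authors' deposited tables give RSEM expected counts (shared reads divided by likelihood), TPM, FPKM and abundance-weighted lengths, 1 table per library, with replicates kept apart. FPKM, as deposited, was not used.

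Expected counts, as deposited, were rounded, and the 12115 genes kept by filterByExpr (minimum count 10) went into 1 model of the 4 groups in edgeR 4.0.16 (R 4.3.3), with TMM scaling. Groups were compared with the robust quasi-likelihood F test, with Benjamini-Hochberg adjustment over all genes tested in each comparison. SEs are approximate: each log2 fold change without its sign, divided by the root of its F. Members were matched by symbol in GENCODE M21, which gave a symbol for 24746 of 25097 identifiers. The members, gene lists and alternatives were chosen with earlier results of these data known. Every member may be named; values for each library are given for the 6 largest called changes per comparison among members that average 10 CPM or more in the groups compared, and for Ube2c, Ube2s, Ube2t, Ube2h, Ube2o and Ube2l6. Library values of further members were added after they were seen. From each list, the up to 4 called genes that moved most and reached 1 CPM may be named, and other partners (Maea, Fzr1, Fancl, Uba1, Uba6, Isg15, Usp18 and exon neighbours among them) were named after their values were seen.

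Alternatives used DESeq2 1.42.0, its size factors, other filters, limma 3.58.1 on log2(TPM + 1), 2 groups only, a replicate block, and leaving out each library. Checked on simulated data, in which 200 genes were changed, for estradiol-treated against untreated WT cells, with 11984 genes, the fit recovered 56% of genes changed 1.25-fold, 67.3% at 1.5-fold, 87.2% at 2-fold and 93.8% at 4-fold. All other genes were drawn at equal means in both groups, and 10 unchanged genes were called. In the data 89.7% of genes were called, so this simulation does not check the scaling. Promoter windows came from RefSeq on GRCm38.p6; 7 members had no entry, Ube2d2a, Ube2e3, Ube2g2, Ube2o, Ube2v2 and Ube2w among them. Some genes, 1 member included, count in the totals but are not reported here. RSEM divides reads among paralogs and overlapping exons by a model, so such genes are less certain.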

Additional observations from a re-analysis of the deposited data

How the results depend on the processing

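With estradiol, 28 to 30 members were called when single libraries were left out, 20 to 23 between mutant and WT cells, 9 to 15 with 5-ALA (5 to 11 of them higher, 4 to 7 lower) and 22 to 25 between mutant cells with 5-ALA and WT. A call was gained or lost by leaving out 1 library in 5, 6, 13 and 7 genes of these comparisons, in that order, and apart from Ube2d2b their changes were at most 0.30 on the log2 scale. Requiring a 1.5-fold change left 19 members with estradiol (9 lower), 3 in the mutant comparison (0 higher and 3 lower), 3 with 5-ALA (2 higher, 1 lower) and 3 in the last comparison (1 higher, 2 lower). Of all genes, 34.7% (higher) and 37.9% (lower) with estradiol, 13.1% and 12.9% in the mutant comparison, 4.36% and 2.08% with 5-ALA, and 9.6% and 8.72% in the last comparison passed this threshold. DESeq2 called 5 members higher in mutant cells, 8 with 5-ALA (4 higher) and 4 higher in mutant cells with 5-ALA than in WT. DESeq2 size factors gave 4 higher in the last comparison and the stricter filter (5 CPM in 3 libraries) 3. With no filter, 9 were called with 5-ALA, 3 of them higher. The fit on log2(TPM + 1) gave 15 higher and 8 lower in mutant cells, 25 with 5-ALA (2 higher, 23 lower) and 4 higher in the last comparison. Centred on the library median, an alternative chosen after seeing the data, it gave 5 higher in mutant cells and 2 higher in the last comparison. In the log2(TPM + 1) fit the median of all genes was -0.23, 0.13, -0.15 and 0.002 in the 4 comparisons, and 0.30, -0.14, 0.039 and -0.072 when centred, so small changes turn with the scale.

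Signs turned for some members. With estradiol these were, under the stricter filter, Ube2d3 (0.047), Ube2g2 (0.11) and Ube2v2 (0.032), on log2(TPM + 1), Ube2a (-0.12), Ube2d2a (-0.17), Ube2j2 (-0.23), Ube2l3 (-0.059) and Ube2v1 (-0.27), and when centred, Ube2d3 (0.19), Ube2g2 (0.19), Ube2q2 (0.10) and Ube2v2 (0.062). In mutant against WT cells they were, on log2(TPM + 1), Ube2d3 (0.013), Ube2g1 (0.099), Ube2j1 (0.18), Ube2j2 (0.16), Ube2l6 (0.21), Ube2q2 (0.15) and Ube2r2 (0.012), and when centred, Ube2k (-0.071) and Ube2v2 (-0.15). With 5-ALA they were, on log2(TPM + 1), Ube2b (-0.15), Ube2d2a (-0.13), Ube2f (-0.16), Ube2g1 (-0.0061), Ube2g2 (-0.062), Ube2h (-0.026), Ube2j2 (-0.23), Ube2l3 (-0.29), Ube2l6 (-0.086), Ube2m (-0.14), Ube2q1 (-0.12), Ube2r2 (-0.20) and Ube2z (-0.12), and when centred, Ube2l3 (-0.098). In mutant cells with 5-ALA against WT they were Ube2k (-0.040, or -0.11 when centred) and, when centred, Ube2v1 (-0.034). The stricter filter tests fewer genes; otherwise the cause was not tested.

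With the replicate number as a block, 30, 22, 14 and 24 members were called in the 4 comparisons. The labels give no shared culture or day for a number. Deviations of same-numbered libraries correlated with r from -0.104 to 0.0669 (median 0.0056, 18 pairs), against -0.0925 to 0.115 for different numbers. No pairing was thus seen, but with 3 libraries per group such correlations cannot exclude a shared culture or day. Depth limits Ube2cbp, Ube2d2b, Ube2e2 and the untested members most.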
